A study of Mus musculus with 37 samples.

Results

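The genes described here are the very long protein coding genes of mouse brain cortex: those whose span from first to last annotated base is 500 kb or more in GENCODE M21 (GRCm38), that do not lie on chromosomes 6, 14, X or Y, and that reached a mean of 1 count per 1 M counts (CPM) or more in wild-type (WT) cortex. The rule found 171 genes of the 55536 in the count table. A further 15 genes of that length on the same chromosomes were under 1 CPM, and 44 lay on the chromosomes left out. The genes were chosen by their annotated span and their measured level in WT cortex, so neither is a finding. All 171 were tested, and none was lost to the filter on low counts.

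RNA was sequenced from brain cortex of mice aged 10 months in 21 libraries, part of a series of 37 that also holds liver. The 4 genotypes were WT (5 libraries), TDP-43Q331K (6 libraries), mice that per the series title carry the Q331K mutation knocked in, here read as a mutation of Tardbp, the gene of TDP-43, TMEM106B-/- (5 libraries), and TMEM106B-/-TDP-43Q331K (5 libraries), which carries both changes and is called the combined genotype below. The labels name no treatment. The knock-in acts wherever Tardbp is expressed and is not limited to neurons, and cortex RNA mixes neurons, glia and vessels. Whether libraries stand for separate animals is not stated in the labels, so the p-values rest on the spread between samples, which may be technical.

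TDP-43 is a nuclear RNA-binding protein that prefers stretches of alternating U and G. In brain it binds within long introns, and when it is depleted, RNAs with very long introns are known to be among those that fall, many of them encoding synaptic proteins. Such genes take hours to transcribe, and brain uses more of them than other tissues. TMEM106B is a membrane protein of late endosomes and lysosomes that influences lysosome size and acidity, myelination and the risk of frontotemporal dementia with TDP-43 inclusions. The comparisons ask how the RNAs of such genes stand with the mutant TDP-43, without TMEM106B, and with both.

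Among the 171 genes, Nrxn3 and Nlgn1, which encode synaptic adhesion proteins, were on a list written for this work of RNAs known to fall on TDP-43 depletion in mouse brain. Runs of alternating T and G, the DNA form of the preferred sequence, were searched on the sense strand of the longest coding transcript of each gene in GENCODE M21. The longest such run of both RNAs, and of Auts2, is shown with its flanks, as an example of the letters that TDP-43 is known to prefer. Auts2 passed the test in TMEM106B-/- and in the combined genotype against WT, but not with the knock-in alone. Whether such runs bear on any difference was not tested. Capitals mark the run, and the window is 30 bases.
Nrxn3: gttctgaccaGTGTGTGTGTaactttccaa
Nlgn1: gcggcatctgtcTGTGTGaaatcaatggga
Auts2: cactTGTGTGTGTGTGTGTGTGTGTtgtat
The run lies in the 3′ UTR in Nrxn3 (10 bases) and in Auts2 (21 bases), and in the 5′ UTR in Nlgn1 (6 bases). A run of at least 12 bases stood in 28 of the 171 long genes (16.4%) and in 7.71% of 13197 other protein coding genes at 1 CPM or more. Those others were taken from all chromosomes. The transcripts of the long genes were longer, with a median of 6373 against 3298 bases. Per kb of transcript, runs of 6 bases or more occurred 0.585 times in the long genes and 0.572 times in the others. Runs of exactly 6 or exactly 12 bases were counted at those limits only if they began with T. Of the 28 genes with a 12-base run, 25 held their longest run in the 3′ UTR, 2 in the 5′ UTR and 1 in coding sequence. Nav2 had the longest run, at 59 bases, and in Sema6d it was 41 bases. A match describes the letters only. The introns, where most of the length lies, were not examined here.

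Start sites were also compared, because long genes often use several. Of the 171, 132 matched the RefSeq promoter table (GRCm38.p6, 250 bases before to 50 after each start), with 215 promoters. In the long genes 38.6% had at least 2 promoters in the table, against 15.4% of all 27025 genes there. The promoters at the annotated starts of Sema6d and Robo2 are shown because these are the members called in the most comparisons in each direction. Capitals mark the GC box GGGCGG, searched on both strands.
Sema6d, chr2:124089719-124090018, plus strand: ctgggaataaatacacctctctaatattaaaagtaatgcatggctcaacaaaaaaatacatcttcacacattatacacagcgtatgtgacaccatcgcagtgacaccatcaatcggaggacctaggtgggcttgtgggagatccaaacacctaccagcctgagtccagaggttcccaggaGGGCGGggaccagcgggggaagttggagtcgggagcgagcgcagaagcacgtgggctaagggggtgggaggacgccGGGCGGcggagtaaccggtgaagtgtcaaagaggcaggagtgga
Robo2, chr16:74411776-74412075, minus strand: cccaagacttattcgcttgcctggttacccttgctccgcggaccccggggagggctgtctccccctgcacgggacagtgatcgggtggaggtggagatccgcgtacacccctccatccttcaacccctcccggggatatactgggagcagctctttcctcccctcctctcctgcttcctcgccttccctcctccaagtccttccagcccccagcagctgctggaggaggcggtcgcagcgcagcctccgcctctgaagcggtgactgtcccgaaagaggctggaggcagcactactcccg
The GC box was in 41.4% of the promoters of long genes and in 35.7% of all 32851 promoters. The TATA box TATAAA was in 10.7% and 13.6%, the cAMP response element TGACGTCA in 0.930% and 1.79%, and TCACGTGA, the core of the element that lysosomal genes share, in 0.465% and 0.974%, each on both strands. No motif contains another. The Robo2 promoter shown held none of them.

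The 171 genes spanned 501.8 kb (Edil3) to 2961 kb (Fgfr2), with a median of 713 kb, and 43 of them were 1000 kb or longer. Very little of this was exon: the median gene had 10560 exon bases, 1.31% of its span, against 4620 bases and 18.2% in the 11637 other protein coding genes at 1 CPM or more on the same chromosomes. The longest intron was 278 kb in the median long gene and 9.26 kb in the others. An intron of 100 kb or more was present in 159 long genes (93.0%) and in 4.39% of the others. The genes were spread over 17 chromosomes, with 17 on chromosome 8 and 1 on chromosome 18.

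The annotated span overstates the length of some members. In 15 of the 171, no coding transcript in the annotation's basic set was as long as 500 kb. B3galt1 is the extreme, with 15.8 kb of a 557-kb span, and for Auts2 it was 179 kb of 1106 kb. The Fgfr2 span rests on a single 2909-kb intron. Just inside the span threshold were Edil3 (501.8 kb), Dock1 (503.0 kb) and Car10 (503.7 kb), and just outside were Dnm3 (495.6 kb), Cacna1e (493.8 kb) and Gabrb1 (490.9 kb). At the CPM threshold, Agbl1 (1.29 CPM), Sugct (2.18 CPM) and Immp2l (3.04 CPM) were inside, and Stpg2 (0.716 CPM) and Iqcm (0.692 CPM) outside.

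As a description, the levels of the long genes in cortex and liver are set beside those of the other genes. Both sets were chosen at 1 CPM or more in WT cortex, with no limit on liver. That choice favours cortex over liver in both. Their median WT cortex level was 87.6 CPM, against 25.2 CPM in the other genes, and per kb of exon it was 9.08 against 5.72 CPM. In WT liver, 61 of 171 (35.7%) reached 1 CPM, against 78.4% of the other genes. Only 10 (5.85%) were higher in liver than in cortex, against 29.2% of the others. Per kb of exon over all cortex libraries, Syt1, the calcium sensor of synaptic vesicle release, led with 233 CPM. It was followed by Rbfox1, a neuronal splicing factor, at 74.8 CPM per kb and Psd3, an exchange factor for small G proteins, at 57.0 CPM per kb. Bulk cortex does not show which cells hold these RNAs, and the word neuronal is used here only for genes whose function is known. Members such as Fgfr2, a fibroblast growth factor receptor, and Slc7a11, the cystine transporter, are known from glia as well.

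Before the results, a property of the libraries must be given. Tmem106b RNA was not lower where the label says the gene was lost. It was at 188 ± 4.69 CPM (SD, n = 5) in WT and 184 ± 6.66 CPM (n = 5) in the libraries labelled TMEM106B-/-, so groups are named by label. It was at 181 ± 6.79 CPM (n = 6) in TDP-43Q331K and 200 ± 13.5 CPM (n = 5) in the combined libraries. That difference, 0.14 ± 0.04 on the log2 scale, did not pass edgeR's test (adjusted p = 0.0751). Tardbp stood at 178 ± 5.78 CPM (SD, n = 6) with the knock-in alone, against 157 ± 5.44 CPM in WT. The libraries labelled TMEM106B-/- averaged 151 ± 12.2 CPM and the combined ones 158 ± 5.85 CPM (n = 5 in each of these groups). Its difference from WT did not pass edgeR's test in TDP-43Q331K (0.18 ± 0.04 on the log2 scale, adjusted p = 0.431) or in the combined genotype (0.0086 ± 0.046, adjusted p = 0.937). Total counts ran from 28.8 to 46.3 M per library. The libraries labelled TMEM106B-/- and combined also differed from WT in markers of other cells and layers. All 8 oligodendrocyte markers, among them Mbp, Mog, Mag and Mobp, passed the test as lower in both. Their summed level was 2901 to 3277 CPM in WT, 1946 to 3150 with the knock-in, 1038 to 1484 in TMEM106B-/- and 1121 to 2510 in the combined libraries, and none was at 0. The 6 markers of deep cortical layers summed to 258 to 313 CPM in WT, 232 to 330 with the knock-in, 137 to 293 in TMEM106B-/- and 151 to 281 in the combined libraries. The 5 markers of upper layers summed to 713 to 841 CPM in WT, 642 to 907 with the knock-in, 838 to 1266 in TMEM106B-/- and 836 to 1157 in the combined libraries. The 6 meninges markers went from 11.96 to 32.3 CPM in WT and from 25.3 to 86.2 CPM in TMEM106B-/-. The mean log2 CPM of striatum markers, minus the WT mean, ran from -0.38 to 0.41 in WT and from -0.69 to -0.50 in TMEM106B-/-. In the combined libraries it ran from -0.63 to -0.30. Their summed level was 232 to 546 CPM with the knock-in, highest in replicate 3, and 230 to 341 CPM in WT. Choroid plexus markers summed to 5.95 to 19.5 CPM in WT, 4.97 to 11.5 in TMEM106B-/- and 3.99 to 13.1 in the combined libraries. Some marker lists were higher. The 8 astrocyte markers all had positive differences from WT in both genotypes (medians 0.20 in TMEM106B-/- and 0.18 in the combined genotype, 1 and 2 called), and summed to 5916 to 6421 CPM in WT, 6276 to 7270.1 in TMEM106B-/- and 6450.3 to 7162 in the combined libraries. In each genotype 1 of 8 microglia markers and 1 of 5 endothelium markers was called higher. Of the 8 inhibitory neuron markers, 7 were positive and 1 was called in the combined genotype, with sums of 689 to 770.4 CPM in WT and 758 to 940.2 CPM there. The 11 general neuron markers had no member called in any of the 6 comparisons. The part of these differences in the results below was not tested, and in bulk tissue fewer cells of a type and less RNA per cell cannot be told apart. A set of 4 cortices is called the 4 extreme cortices below, and counts are given with and without them. They are replicate 1 of WT, 3 of TDP-43Q331K, 5 of TMEM106B-/- and 2 of the combined genotype. Each lay at an extreme of its group on some of these markers, but so did other libraries. WT replicate 5 had the lowest upper-layer (713 CPM) and highest meninges (32.3 CPM) sums in WT. TDP-43Q331K replicate 6 had the lowest oligodendrocyte (1946 CPM) and deep-layer (232 CPM) sums with the knock-in.

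The total output of the long genes differed little between genotypes. Together they took 3.33 ± 0.041% of all counts in WT (SD, n = 5), 3.33 ± 0.052% with the knock-in (n = 6), 3.34 ± 0.089% in TMEM106B-/- (n = 5) and 3.37 ± 0.081% in the combined libraries (n = 5). A score, the mean log2 CPM of the 171 genes in a library minus the WT mean, was -0.0094 ± 0.033 (SD) with the knock-in, -0.0071 ± 0.062 in TMEM106B-/- and 0.020 ± 0.034 in the combined libraries. The groups overlapped on this score, and the lowest library was TMEM106B-/- replicate 5 at -0.11. A comparison list of 76 short neuronal genes had wider scores, with an SD of 0.093 in WT against 0.021 for the long genes. The gap was smaller elsewhere: 0.087 against 0.033 with the knock-in, 0.070 against 0.062 in TMEM106B-/- and 0.066 against 0.034 in the combined libraries. The lists differ in their number of genes, which was not allowed for.

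**Figure D1:**
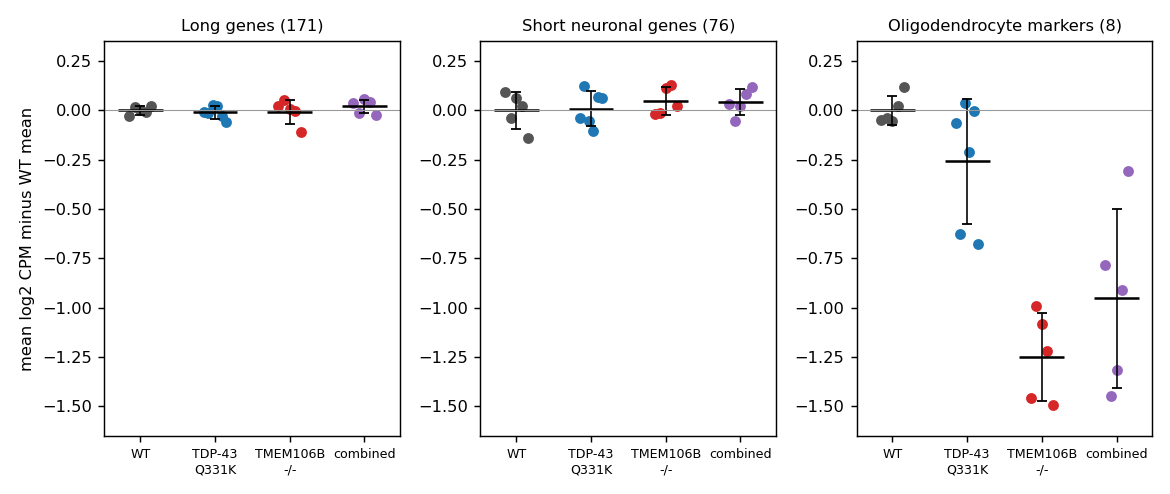
Mean log2 CPM minus the WT mean (vertical axis) in each of the 21 cortex libraries, by genotype, for the 171 long genes, 76 short neuronal genes and 8 oligodendrocyte markers; points are libraries, bars the group mean ± SD. The long genes stay within -0.11 and 0.056 in every library, while the oligodendrocyte markers fall to between -1.50 and -0.99 in TMEM106B-/-.

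TDP-43Q331K against WT asks whether the mutant knock-in alone lowers long RNAs. No long gene passed the test in edgeR (0 of 171, smallest adjusted p = 0.611, Sorcs3), and no gene of the whole table did (percent called 0%). DESeq2 and limma-voom also called 0 of the 171, with 0.0471% and 0.0518% of all genes called. At an unadjusted p under 0.05 there were 7 of 171 in edgeR (4.09%), against 4.88% of all genes tested. The median log2 fold change of the long genes was -0.0067 (93 negative, 78 positive), and that of all 21248 genes tested was 0.0027.

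The data bounded most of these differences closely. For 141 of the 171 genes the 95% interval of the difference lay within 1.25-fold in both directions, and for 166 within 1.5-fold. The estimates ran from -0.37 (Zfp804b, a zinc finger gene, SE 0.23) to 0.36 (Thsd4, SE 0.21), in genes with WT means of 8.60 and 9.63 CPM, and 4 estimates were beyond 1.25-fold. Among the 171, the rank correlation of the difference was -0.16 with span and -0.19 with the longest intron, given as a description over genes that share the same libraries.

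**Figure D2:**
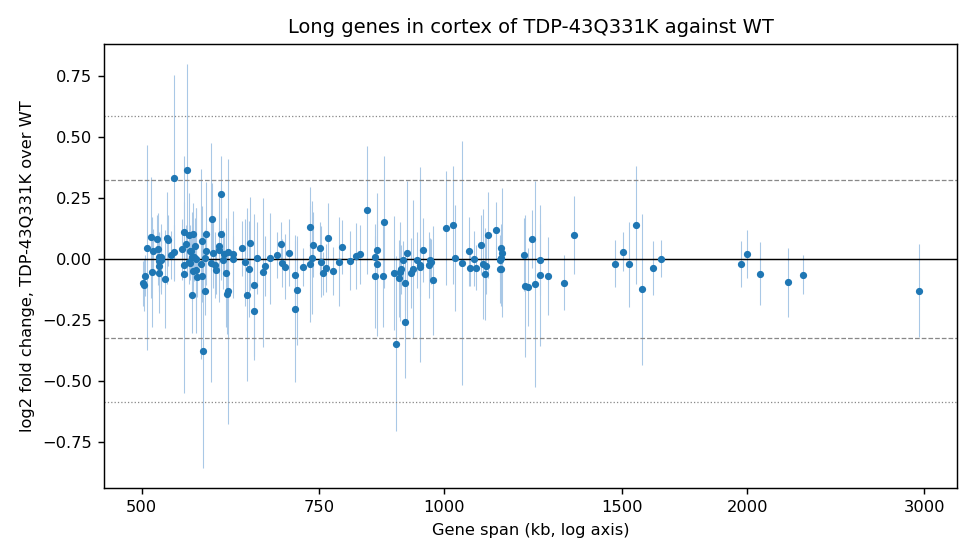
Log2 fold change of TDP-43Q331K over WT (vertical axis) against gene span in kb (horizontal log axis) for the 171 long genes; points are edgeR estimates, bars 95% intervals, dashed and dotted lines 1.25-fold and 1.5-fold. No estimate lies beyond 1.5-fold, and no gene passed the test.

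Nrxn3 and Nlgn1, known to respond to TDP-43 depletion, did not pass the test here. Nrxn3 (chromosome 12, 88722876 to 90334935, plus strand, longest intron 464 kb) encodes a presynaptic neurexin. It stood at 607, 633, 633, 596 and 566 CPM in the WT libraries and at 563 to 621 CPM in TDP-43Q331K (median 590.4, n = 6). The groups overlapped, and the log2 fold change was -0.04 ± 0.05 (SE), with an interval from -0.15 to 0.07. Nlgn1 (chromosome 3, 25426215 to 26332460, minus strand), its postsynaptic partner neuroligin, stood at 183, 197, 195, 193 and 199 CPM in WT and 176 to 201 CPM in TDP-43Q331K (median 188). Its difference was also -0.04 ± 0.05, with an interval from -0.14 to 0.06. In the combined genotype against TMEM106B-/-, the other test of the knock-in, the differences were 0.01 ± 0.06 for Nrxn3 and -0.01 ± 0.05 for Nlgn1.

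The largest genes gave the same picture of small differences. Ptprd (2271 kb), a receptor phosphatase of the presynapse, differed by -0.06 ± 0.04 between TDP-43Q331K and WT. Lsamp (2197 kb), a membrane-anchored adhesion protein of limbic neurons, differed by -0.10 ± 0.07. Lrp1b (2058 kb), a lipoprotein receptor relative, differed by -0.06 ± 0.06, Macrod2 (1998 kb) by 0.02 ± 0.05 and Dlg2 (1973 kb), a postsynaptic scaffold, by -0.02 ± 0.05. None of these passed the test. Fgfr2, with the longest span, differed by -0.13 ± 0.09.

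By function, no group of long genes had a member called in TDP-43Q331K against WT. The groups come from role lists that cover 138 of the 171 genes. The 47 genes of synaptic adhesion and axon guidance had a median of -0.010. The 23 channels, receptors and transporters had a median of -0.015. Ryr2, the calcium release channel of the endoplasmic reticulum, was at 768 ± 30.01 CPM (SD, n = 5) and 800.4 ± 42.4 CPM (n = 6). The 16 scaffold and vesicle release genes, which include Syt1 and the ankyrins Ank2 and Ank3, had a median of -0.0059. The 17 genes of kinase, phosphodiesterase and G protein signalling were at 0.018, the 17 of transcription and RNA regulation at -0.011 and the 18 of cytoskeleton and trafficking at -0.0013. These medians stand beside 0.0027 for all genes tested.

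Loss of TMEM106B against WT changed 11 of the 171 genes (6.43%), 5 higher and 6 lower, where 5.16% of all tested genes were called (2.78% higher, 2.39% lower). The edgeR count is near that background. DESeq2 called 16 (9.36%) and limma-voom 24 (14.04%), against 6.96% and 7.95% of all genes, so in these tools the share of long genes was higher. Without the 4 extreme cortices edgeR called 8, and leaving out WT replicate 4 gave the smallest, 5. The share of all genes called in such refits is not given here or below. At an unadjusted p under 0.05 there were 44 (25.7%), against 19% of all genes. The 6 that fell were Sema6d, A830018L16Rik, Ctnna3, Fgfr2, Adamtsl1 and Mdga2, and the 5 that rose were Dpp6, Thsd4, Auts2, Kcnq5 and Robo2. The median log2 fold change of all 171 was 0.013, against 0.0064 for all genes tested. In the 11637 other protein coding genes at 1 CPM or more on the same chromosomes it was also 0.013. Of those, 6.01% were called and 20.4% had an unadjusted p under 0.05 in edgeR.

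Sema6d (chromosome 2, 124089969 to 124667770, plus strand), a transmembrane semaphorin that guides axons, changed most clearly. It stood at 100.2, 99.1, 102, 99.4 and 102 CPM in WT and at 86.4, 85.7, 85.4, 85.2 and 74.9 CPM in TMEM106B-/-. Each of the 5 TMEM106B-/- libraries lay below each WT library, with a log2 fold change of -0.27 ± 0.05 (SE, edgeR adjusted p = 0.00199). In the combined genotype it stood at 90.8, 80.6, 91.0, 96.6 and 86.0 CPM, again below every WT library, and fell by 0.17 on the log2 scale (SE 0.05, adjusted p = 0.0392). The TDP-43Q331K libraries ran from 84.8 to 98.9 CPM (median 91.8), also below every WT library, but this difference, -0.13 ± 0.05, did not pass the test (adjusted p = 0.838). The effect of TMEM106B loss on Sema6d was -0.27 without and -0.04 ± 0.05 with the knock-in, and the test of that difference gave 0.22 ± 0.07 with an adjusted p of 0.999.

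A830018L16Rik (chromosome 1, 11414105 to 11975901, plus strand) is a protein coding gene that the annotation names by its clone. It stood at 131, 129, 127, 134 and 134 CPM in WT and at 96.6, 116, 113, 118 and 103 CPM in TMEM106B-/-, groups that did not overlap, and differed by -0.26 ± 0.05 (adjusted p = 0.00225). Its combined libraries were at 125, 112, 123, 124 and 113 CPM, also below WT, without passing the test (-0.14 ± 0.05, adjusted p = 0.102).

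Ctnna3 (chromosome 10, 63430098 to 65003667, plus strand), an alpha catenin that ties cadherins to actin, showed the largest fall. It stood at 5.09, 5.74, 6.55, 5.49 and 6.28 CPM in WT and at 3.17, 4.28, 4.06, 3.75 and 2.62 CPM in TMEM106B-/-, with no overlap, a log2 fold change of -0.71 ± 0.16 (adjusted p = 0.00974). In TDP-43Q331K it ranged from 3.88 to 7.01 CPM (median 5.44), and in the combined genotype from 3.43 to 5.68 CPM (median 4.08).

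Fgfr2 (chromosome 7, 130162451 to 133123350, minus strand) stood at 61.5, 58.7, 53.8, 54.2 and 62.5 CPM in WT and at 45.7, 48.0, 40.2, 41.6 and 46.5 CPM in TMEM106B-/-. The groups did not overlap (-0.39 ± 0.10, adjusted p = 0.0204). Adamtsl1 (chromosome 4, 85514172 to 86428385, plus strand), a secreted matrix protein, stood at 12.3, 13.3, 12.9, 14.5 and 15.4 CPM in WT and at 10.7, 11.2, 10.7, 9.27 and 7.90 CPM in TMEM106B-/-, also without overlap (-0.46 ± 0.12, adjusted p = 0.0208). Both calls ended when the 4 extreme cortices were left out, as did those of Mdga2, Thsd4, Kcnq5 and Robo2 in this comparison. The differences kept their direction without those cortices, at -0.39 for Fgfr2, -0.42 for Adamtsl1, -0.11 for Mdga2, 0.57 for Thsd4, 0.15 for Kcnq5 and 0.21 for Robo2. Mdga2 (chromosome 12, 66466060 to 67222549, minus strand), which binds neuroligins and limits synapse formation, differed by -0.15 ± 0.04 (adjusted p = 0.0478), and here the highest TMEM106B-/- library (154 CPM) lay above the lowest WT library (153 CPM). These genes fell in the same libraries in which the 8 oligodendrocyte markers fell by a median of 1.23 on the log2 scale.

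Among the genes that rose, a pair encodes parts of potassium channel complexes. Dpp6 (chromosome 5, 26817203 to 27727505, plus strand), an auxiliary subunit of A-type potassium channels, stood at 190.4, 189.8, 189, 190.1 and 187 CPM in WT, and at 221, 217, 213, 213 and 194 CPM in TMEM106B-/-. The groups did not overlap (0.16 ± 0.04, adjusted p = 0.0168). Kcnq5 (chromosome 1, 21398403 to 21961942, minus strand), a pore subunit of the M-type potassium channel, stood at 188, 198, 191, 187 and 188 CPM in WT and 214, 221, 205, 208 and 218 CPM in TMEM106B-/-. It also showed no overlap (0.16 ± 0.05, adjusted p = 0.0459).

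Auts2 (chromosome 5, 131437333 to 132543344, minus strand), a regulator of transcription and of neurite growth, stood at 34.8, 33.9, 36.8, 34.2 and 29.4 CPM in WT and at 38.2, 39.0, 41.4, 43.6 and 48.3 CPM in TMEM106B-/-, without overlap (0.32 ± 0.09, adjusted p = 0.0369). Robo2 (chromosome 16, 73891839 to 74411825, minus strand), a receptor for the repulsive guidance protein Slit, stood at 187, 188, 172, 193 and 186 CPM in WT and at 222, 221, 197, 213 and 202 CPM in TMEM106B-/- (0.19 ± 0.05, adjusted p = 0.0463). Every TMEM106B-/- library lay above every WT library. Thsd4 (chromosome 9, 59966931 to 60522046, minus strand), a secreted protein of microfibrils that the role list holds under cytoskeleton and trafficking, had the largest rise. It stood at 7.79, 10.1, 10.9, 8.80 and 10.6 CPM in WT and at 19.4, 16.2, 11.1, 13.0 and 23.1 CPM in TMEM106B-/- (0.79 ± 0.21, adjusted p = 0.0356). The 6 meninges markers had a median of 1.24 in the same comparison, 3 of them called higher.

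These calls differed in how much they depended on single libraries. Sema6d, A830018L16Rik and Ctnna3 passed under all 17 alternatives tried for each, and Dpp6 under 16 of 17. Thsd4 and Kcnq5 lost the call under 11 of 17, Robo2 and Mdga2 under 10, Auts2 under 8, Adamtsl1 under 4 and Fgfr2 under 3. Their adjusted p-values rose to at most 0.224 (Thsd4). For the other genes that lost the call somewhere, the highest adjusted p lay between 0.0606 (Dpp6) and 0.156 (Mdga2).

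**Figure D3:**
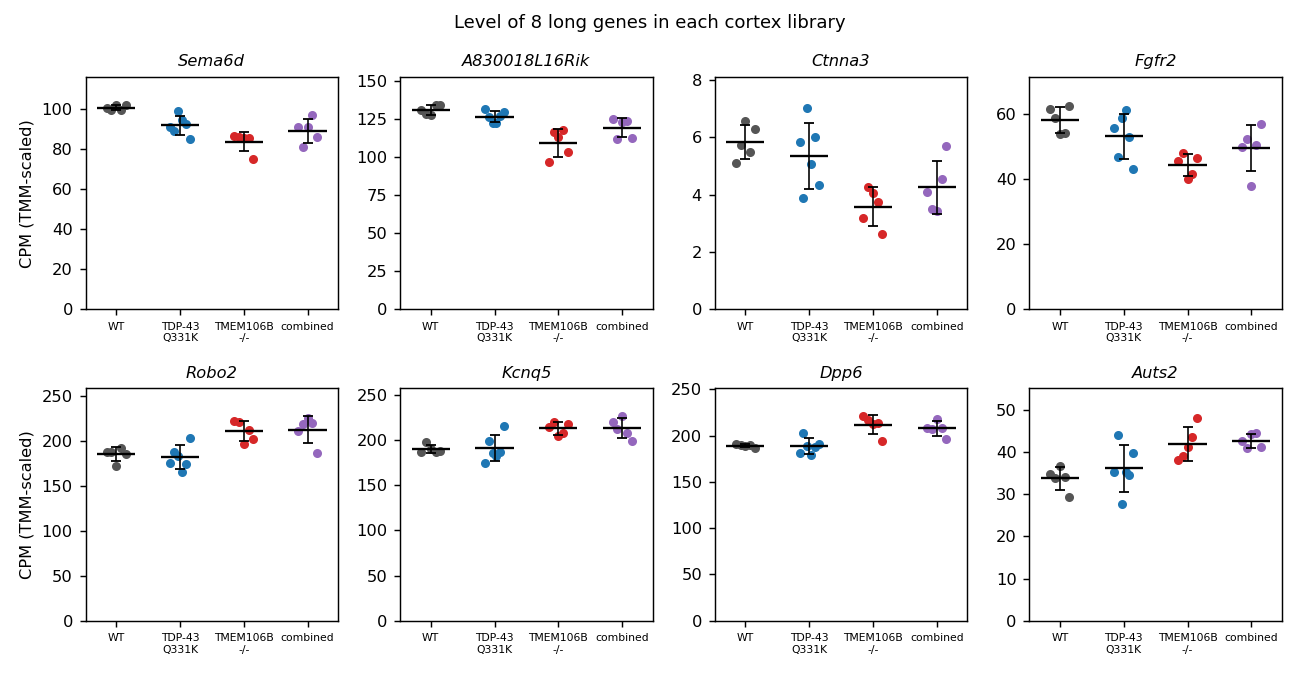
TMM-scaled CPM (vertical axes, from 0) of 8 long genes in the 21 cortex libraries by genotype; points are libraries, bars the group mean ± SD. In TMEM106B-/- every library of Sema6d, A830018L16Rik, Ctnna3 and Fgfr2 lies below, and every library of Robo2, Kcnq5, Dpp6 and Auts2 above, all 5 WT libraries.

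The combined genotype against WT changed 8 of the 171 (4.68%), 7 higher and 1 lower. The share was 4.89% of all genes and 5.83% of the 11637 other protein coding genes. In all genes tested the calls were nearly even, with 2.53% higher and 2.36% lower. DESeq2 called 17 of the long genes (9.94%, 15 higher) and limma-voom 21 (12.3%, 19 higher), against 8.21% and 8.56% of all genes. At an unadjusted p under 0.05 there were 54 (31.6%), against 21.5% of all genes and 24.3% of those 11637. Auts2, Robo2, Kcnq5 and Dpp6 rose and Sema6d fell here too, in a comparison that shares its WT libraries with the one above. The added genes were Kirrel3, Ptprm and Schip1. The count was also 8 without the 4 extreme cortices, 2 without WT replicate 2, and 19 without combined replicate 5. That library had the highest oligodendrocyte marker sum of its group (2510 CPM). It also had the lowest upper-layer (836 CPM) and meninges (34.8 CPM) sums. The part of these traits in the count was not tested.

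Kirrel3 (chromosome 9, 34485894 to 35036716, plus strand), a synaptic adhesion protein of the immunoglobulin family, stood at 36.1, 41.6, 41.2, 41.2 and 42.4 CPM in WT and at 49.2, 55.0, 50.4, 48.6 and 44.8 CPM in the combined genotype. Every combined library exceeded every WT library (0.29 ± 0.06, adjusted p = 0.0112). Ptprm (chromosome 17, 66666947 to 67354457, minus strand), a receptor phosphatase that binds itself on neighbouring cells, stood at 70.7, 71.7, 68.7, 72.8 and 69.3 CPM in WT and at 82.1, 90.6, 81.0, 80.3 and 75.4 CPM in the combined genotype, with no overlap (0.21 ± 0.05, adjusted p = 0.0123). Both held under all 17 alternatives. In TMEM106B-/- the differences from WT were 0.15 ± 0.06 for Kirrel3 and 0.14 ± 0.05 for Ptprm, and neither passed the test.

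Schip1 (chromosome 3, 68064802 to 68626481, plus strand), a partner of the ankyrin and spectrin scaffold of axons, stood at 34.0, 26.6, 30.4, 26.7 and 30.6 CPM in WT and at 34.3, 36.9, 35.8, 43.7 and 37.9 CPM in the combined genotype (0.35 ± 0.09, adjusted p = 0.0316). Of its exon bases, 39.1% are shared with the overlapping gene Iqschfp, so reads from the pair may be divided by the counting. Auts2 stood at 42.6, 40.9, 44.5, 44.6 and 41.3 CPM (0.34 ± 0.09, adjusted p = 0.0306) and Kcnq5 at 220.1, 213, 227, 209 and 199 CPM (0.17 ± 0.05, adjusted p = 0.0454), each with all 5 libraries above WT. Robo2 stood at 212, 219, 225, 219.9 and 187 CPM (0.20 ± 0.05, adjusted p = 0.0381), where the last library lay within the WT range. Dpp6 was at 208, 207, 218, 209 and 196 CPM (0.14 ± 0.04, adjusted p = 0.0478). These 4 calls and those of Schip1 and Sema6d were each lost under 7 to 14 of 17 alternatives.

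The combined genotype against TDP-43Q331K tests the loss of TMEM106B where the knock-in is present, and shares no library with TMEM106B-/- against WT. Robo2 was the single long gene called (0.585% of 171, against 1.4% of all genes tested and 0.8% called higher). For it, DESeq2 called 11 long genes (6.43%) and limma-voom 14 (8.19%), all of them higher, against 3.91% and 3.68% of all genes. The TDP-43Q331K libraries of Robo2 ran from 165 to 204 CPM (median 179.6), and 4 of the 5 combined libraries lay above all of them (0.23 ± 0.05, adjusted p = 0.0352). This call was lost under 10 of 18 alternatives. Without the 4 extreme cortices the count was 0, and without combined replicate 5 it was 15. Just over the threshold were Schip1 (0.34 ± 0.09, adjusted p = 0.0527), Car10 (0.16 ± 0.04, adjusted p = 0.0554) and Dpp6 (0.14 ± 0.04, adjusted p = 0.0584). At an unadjusted p under 0.05 there were 44 of 171 (25.7%), against 18.1% of all genes and 20.1% of the 11637 other protein coding genes.

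Across the 171 genes, the effect of TMEM106B loss had the same sign on both backgrounds in 125 (73.1%), against 69.1% of all genes tested and 72.0% of the 11637 other protein coding genes at 1 CPM or more on the same chromosomes. All 11 genes called against WT kept their sign on the TDP-43Q331K background, as did 1062 of the 1097 genes called in the whole table (96.8%). The Pearson correlation of the log2 fold changes was 0.69 over the long genes, 0.68 over all genes and 0.76 over those 11637. It describes genes that are not independent replicates, and the 8 oligodendrocyte markers had medians of -1.23 and -0.69 in the same comparisons.

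**Figure D4:**
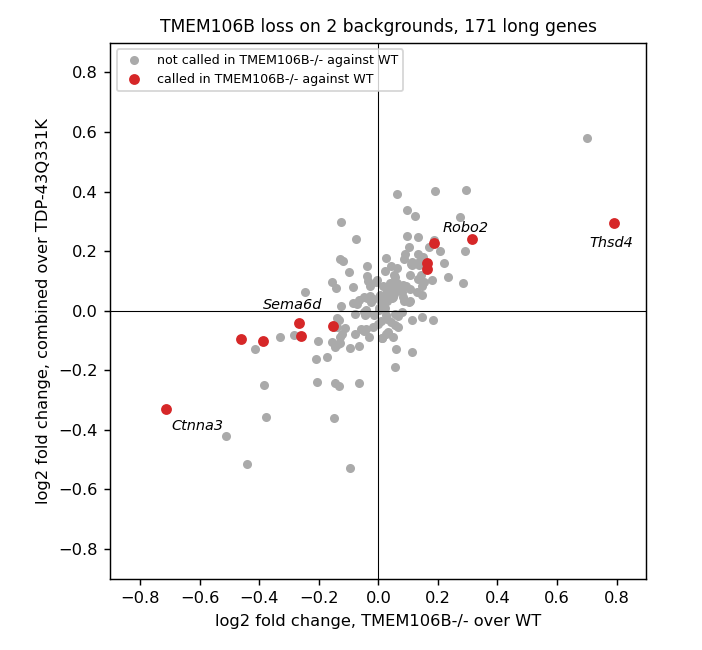
Log2 fold change of TMEM106B-/- over WT (horizontal axis) and of the combined genotype over TDP-43Q331K (vertical axis) for the 171 long genes; red points are the 11 called in the first comparison. The 11 lie in the lower left or upper right quadrant, from Ctnna3 (-0.71 and -0.33) to Thsd4 (0.79 and 0.30).

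The combined genotype against TMEM106B-/- gives the effect of the knock-in where TMEM106B is lost. In edgeR 0 of 171 were called, with 0% of all genes, and DESeq2 and limma-voom called 0 as well. At an unadjusted p under 0.05 there were 6, against 4.96% of all genes. The median was 0.022 with 114 of 171 positive, against 0.0026 for all genes. This median was within the spread between libraries and turned to -0.0026 without TMEM106B-/- replicate 5. The signs of the single genes matched in 77 of 171 (45.0%), against 51.2% of all genes.

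The interaction, which asks if the knock-in alters what TMEM106B loss does, was called for 0 of 171 genes in edgeR, DESeq2 and limma-voom, with 0% of all genes in edgeR. At an unadjusted p under 0.05 edgeR had 13 (7.60%, against 4.57% of all genes). DESeq2 had 14 and limma-voom 17, and the share of all genes at that limit is not given here for these tools. The smallest p-values were those of Edil3 (0.22 ± 0.06) and Sema6d (0.22 ± 0.07), each with an adjusted p of 0.999. No long gene therefore showed an effect of TMEM106B loss that passed a test of depending on the knock-in.

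By role, the edgeR calls against WT were few, and are to be read beside 5.16% of all genes called in TMEM106B-/- and 4.89% in the combined genotype. Adhesion and guidance genes gave 4 of 47 in TMEM106B-/- (Robo2 higher; Sema6d, Ctnna3 and Mdga2 lower) and 4 of 47 in the combined genotype (Kirrel3, Ptprm and Robo2 higher; Sema6d lower). Channels, receptors and transporters gave 2 of 23 in each, Dpp6 and Kcnq5. Transcription and RNA regulation gave 1 of 17 in each, Auts2, while Rbfox1, at 321 ± 27.3 CPM (SD, n = 5) in WT, differed by 0.04 ± 0.09 in TMEM106B-/-. No scaffold or vesicle gene (16) was called in any comparison. Syt1 was at 1893 ± 44.7, 1934 ± 83.3, 1960 ± 91.8 and 1997 ± 139 CPM in WT, TDP-43Q331K, TMEM106B-/- and combined libraries, with overlapping groups. No gene of kinase, phosphodiesterase and G protein signalling (17) was called either. An unadjusted p under 0.05 was found for 2 of these 17 in TDP-43Q331K against WT, 9 in TMEM106B-/- against WT and 9 in the combined genotype against WT, where the shares of all genes were 4.88%, 19% and 21.5%. Dgkb, a diacylglycerol kinase, differed by 0.23 ± 0.07 in the combined genotype (adjusted p = 0.0537).

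Length beyond 500 kb was compared with shorter spans. In TDP-43Q331K against WT, medians by span bin ran from -0.0073 under 10 kb to 0.0052 at 100 to 250 kb and -0.0067 at 500 kb or more. The lowest median of the 7 bins was that of the shortest genes. In the combined genotype against WT the medians were 0.00096 under 10 kb, 0.0026 at 25 to 50 kb, 0.028 at 100 to 250 kb, 0.035 at 250 to 500 kb and 0.032 at 500 kb or more. In TMEM106B-/- against WT, the share of genes called was highest at 100 to 250 kb (10.3%), and was 8.82% at 250 to 500 kb and 6.43% in the long genes. The 76 short neuronal genes had medians of 0.0011, 0.028 and 0.027 in the 3 comparisons with WT, and 0, 1 and 2 calls.

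**Figure D5:**
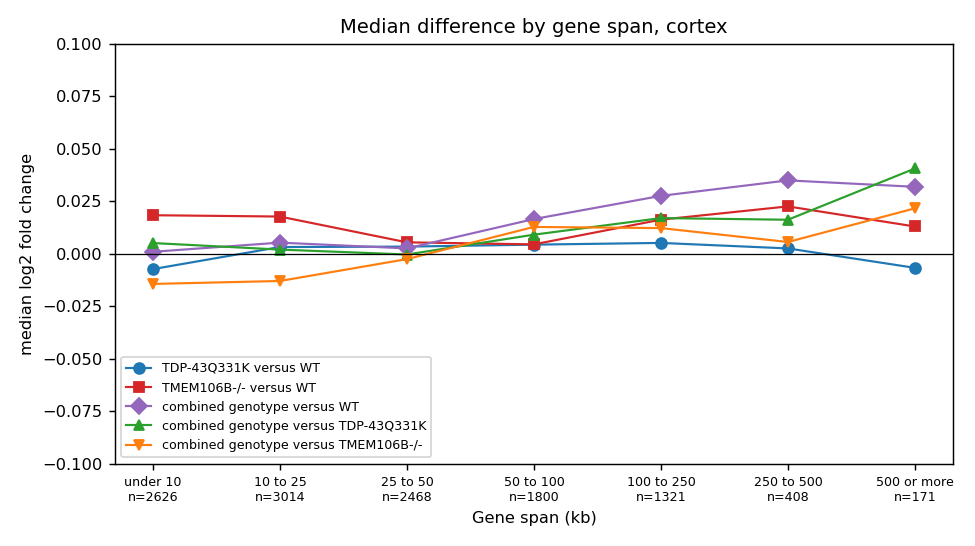
Median log2 fold change (vertical axis) of protein coding genes at 1 CPM or more by gene span in kb (horizontal axis, 7 bins with the number of genes), 1 line for each of 5 comparisons. All medians lie between -0.015 and 0.041, and the TDP-43Q331K line is at -0.0067 in the bin of 500 kb or more.

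Over the 6 comparisons, edgeR called 14 of the 171 long genes at least once (8.19%, against 7.75% of all genes), 5 in at least 2 comparisons and 157 in none. DESeq2 called 29 at least once (17.0%, against 11.7% of all genes) and limma-voom 39 (22.8%, against 13.3%). The 5 were Sema6d, Robo2, Auts2, Kcnq5 and Dpp6, and each moved in the same direction in every comparison that called it. None of the 14 was called by edgeR in a comparison that tests the TDP-43 knock-in alone.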

How the data were processed

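RNA sequencing of 21 cortex libraries in 4 genotypes was used, with liver libraries only for WT levels. The values are deposited counts, whole numbers per gene that the authors made without normalization, per the file headers. Per the labels' protocols, Trizol RNA went into a directional library kit. Per the submitters' processing notes, the tools were FastQC, cutadapt and Trim Galore, with builds GRCm38 and mm10. Not given in the sources used here are the aligner, the counter and the strand setting, so reads of overlapping or antisense genes may be shared. 1 column of the cortex table matched no sample and was not used. Spans, exons and transcripts came from GENCODE M21, in which all 55536 identifiers were found.

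In R 4.3.3, all 21 libraries were fitted in 1 model with edgeR 4.0.16 (filterByExpr, minimum count 10, minimum total count 15, TMM scaling, robust quasi-likelihood test, 17 residual degrees of freedom). It kept 21248 genes. Tests were two-sided and adjusted by Benjamini-Hochberg over all genes, and an adjusted p under 0.05 was a call. CPM are TMM-scaled, but membership used unscaled CPM. Totals of 28.8 to 46.3 M counts gave a common biological coefficient of variation of 0.103, so the spread between libraries set the precision. The pipeline was tested on simulated data.

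Named genes are those called, the 3 most abundant of each role list, those known to fall on TDP-43 depletion, the 10 longest and those at the thresholds, and some that this rule selects are not reported here; Zfp804b, Sorcs3, Psd3, Slc7a11 and B3galt1 were named after their values were seen. The members, the lists and the alternatives were chosen with earlier results of these data known. Alternatives were DESeq2 1.42.0, limma-voom with quality weights (limma 3.58.1), RLE size factors, no filter, only the compared groups, a replicate block, each library left out, 4 cortices left out, and other limits for span, CPM and intron length. Replicate numbers did not pair the libraries.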

Additional observations from a re-analysis of the deposited data

Results flagged for a closer look

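In the groups of 4 to 10 libraries, 164 sets of values of the named genes were examined for a single library far from the rest of its group, and 9 stood out by Dixon's criterion at 95%. Chance gives about 1 in 20 of separate sets. These sets share the same libraries, so that share does not show whether the 9 arose by chance.

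Of the called genes, Sema6d had a low TMEM106B-/- library at 74.9 CPM, where the next was at 85.2 CPM, and its call against WT held when that library (replicate 5) was left out. Kirrel3 had a low library in WT at 36.1 CPM (next 41.2) and in TMEM106B-/- at 39.1 CPM (next 45.7). Its call in the combined genotype against WT held without any single library. Schip1 had a low TDP-43Q331K library at 26.8 CPM (next 29.6).

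Of the other named genes, the ankyrin gene Ank3 had a WT library at 832 CPM (next 996) and Nav2, a neuron navigator gene, a WT library at 233 CPM (next 304). The cyclin-dependent kinase gene Cdk14 had a high WT library at 351 CPM (next 326). In all of these genes the WT library was replicate 5. In TMEM106B-/-, the glutamate receptor gene Grm5 had a library at 319.6 CPM (next 355) and Lsamp a library at 384 CPM (next 502). Both values came from replicate 5, as did the low value of Sema6d. None of these 5 genes was called in any comparison.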

How the results depend on the processing

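All 144 recomputed medians of the long genes moved by less than the spread between libraries. Without TMEM106B-/- replicate 5, however, the sign turned for the combined genotype against TMEM106B-/- (0.022 to -0.0026) and for the interaction (0.029 to -0.0012), and no called gene changed sign. The counts of 0 in TDP-43Q331K against WT, the combined genotype against TMEM106B-/- and the interaction were 0 under every alternative run. The other counts moved. For the edgeR alternatives the share of all genes called is not given here. These counts therefore do not tell if the long genes moved more than the whole table. For TMEM106B-/- against WT (11), leaving out 1 library gave 5 to 15, with 7 without WT replicate 1, 6 without replicate 2, 5 without replicate 4, and 6 and 7 without TMEM106B-/- replicates 1 and 4. Limma-voom called 24, a span limit of 300 kb gave 29 of 436 genes and 700 kb gave 6 of 89. For the combined genotype against WT (8), leaving out 1 library gave 2 to 19: 3, 2, 3 and 2 without WT replicates 1 to 4, and 5, 2, 3 and 19 without combined replicates 2 to 5. It was 4 with no filter on low counts, 17 in DESeq2, 21 in limma-voom, 20 of 436 at 300 kb and 2 of 89 at 700 kb. For the combined genotype against TDP-43Q331K (1), leaving out 1 library gave 0 to 15: 0 without TDP-43Q331K replicate 1, 3, 4 or 5 or combined replicate 1, 3 or 4, 3 without TDP-43Q331K replicate 2 or 6, and 15 without combined replicate 5. It was 0 without the 4 extreme cortices, 11 in DESeq2, 14 in limma-voom, 4 at 300 kb, 0 at 700 kb, and 2 of 190 where an intron of 200 kb or more was the rule. Apart from the span and intron limits, which test other genes, the cause was not tested.

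With the replicate number as a block the counts were 10 for TMEM106B-/- against WT, 5 for the combined genotype against WT and 2 for it against TDP-43Q331K. The numbers did not pair the libraries: 30 same-numbered pairs correlated at -0.20 to 0.16 (median -0.013), and 3 libraries correlated best with their own number.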
